A study of Mus musculus with 2 samples.

Results

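Skeletal muscle turns an electrical signal into contraction at the triad, where a transverse tubule, an inward fold of the cell membrane, lies between terminal cisternae of the sarcoplasmic reticulum. The voltage sensor of the tubule, the dihydropyridine receptor, touches the calcium release channel of the reticulum, and junctional proteins hold the membranes together. The genes of this contact examined for open chromatin were the voltage sensor genes Cacna1s, Cacnb1 and Cacng1 with their partner Stac3, the tubule-shaping gene Bin1, the junctophilin genes Jph1 and Jph2, and the genes Trdn and Asph of the junctional reticulum. They were chosen by name from GENCODE release M21, and are 9 of 21851 protein-coding genes considered. For each, open regions were taken from the gene body and 10 kb either side.

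The data are DNase-seq, in which DNase I cuts accessible DNA in isolated nuclei and dense cleavage marks open regulatory sites. The tissue was the gastrocnemius, a calf muscle of mostly fast fibres, of 2 male B6CASTF1/J hybrid mice aged 36 days, untreated as far as the labels say. They formed 1 group with 1 library each, called replicate 1 and replicate 2, and no other tissue, age or genotype was compared. The labels name separate animals and biosamples but the same donor record. Whole tissue gives nuclei of every cell type present, so a site open in few nuclei and one cut less in each cannot be told apart. With 2 animals and genes picked by name, no p-value is given, and the second animal is the replicate check.

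The value of a peak is the authors' signal height, whose scaling is not stated, so values were ranked only within a library. A percentile is the share of that library's peaks with a value at or below the one named. Each library came with a shorter and a longer peak list, and the shorter was used unless the longer is named. The shorter lists held 50760 and 49230 peaks with median values of 1.76 and 1.33, and all of their 57 and 86 peaks near these genes reached a q-value of 0.001 or lower. In the longer lists all 98 and 117 peaks near these genes reached 0.05 or lower. If the lists were cut at these limits, that is no measure of the quality of these peaks. The depth in reads is unknown. Promoters of 6 of 7 skeletal fibre markers had a peak in both libraries (Ckm, Acta1, Mylpf, Ryr1, Myod1 and Des) and Tnnt3 had one in replicate 1. Of 6 cardiac markers none had a peak in both libraries, and Hand2 had one in replicate 2. Heart muscle also uses Jph2, Trdn, Asph and Bin1, and what the cardiac markers mean for these genes was not tested. Markers of smooth muscle (1 of 3), endothelium (1 of 3), fibro-adipogenic cells (1 of 1), Schwann cells (1 of 2) and neurons (1 of 3) also had promoter peaks in both libraries, macrophages 0 of 3 and satellite cells 0 of 1. Cdh5 of endothelium had one in replicate 1 alone, and Pax7 of satellite cells in replicate 2 alone. With the longer lists endothelium had 3 of 3 and cardiac muscle 1 of 6 (Gata4). The part of these cells in the regions below was not tested.

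A peak within 500 bp of a start site was found in both libraries for 6 of the 9 genes, Asph, Bin1, Jph1, Jph2, Cacna1s and Cacng1. The same held for 54.2% of all protein-coding genes. Cacnb1 had a promoter peak in replicate 2 alone, as did 2.88% of all genes. Stac3 had one in replicate 1 alone, as did 1.59% of all genes. Trdn had none. Each library by itself had a promoter peak for 7 of the 9, against 55.8% of all genes in replicate 1 and 57.1% in replicate 2. In the longer lists the promoters of 8 genes had a peak in both libraries, against 59% of all genes, and Trdn was the exception. The promoters of the 6 genes with a peak in both shorter lists had median values of 4.41 and 2.21, and all 11849 such promoters had 5.73 and 3.95. Asph, Bin1 and Jph1 lay above that median of all promoters in replicate 1, and Asph alone did in replicate 2. The order was the same in both animals from Asph down through Bin1 and Jph1 to Jph2, with Cacna1s and Cacng1 lowest and in opposite order.

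**Figure D1:**
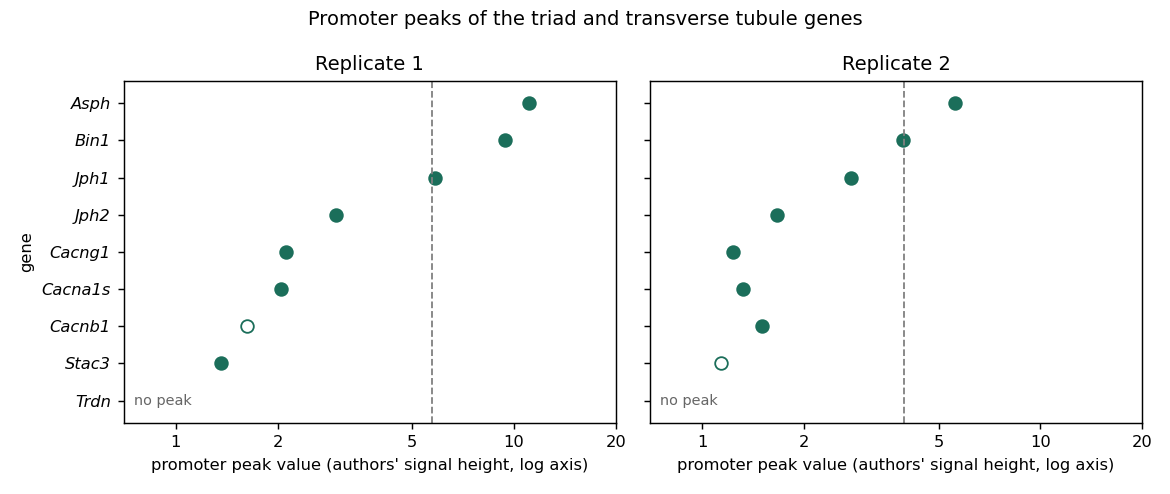
Highest promoter peak of each gene in each library (authors' signal height, log axis), with filled points from the shorter peak list, open points from the longer list where the shorter has none, and a dashed line at the median of all gene promoters open in both libraries (5.73 and 3.95). Asph lies above that line in both libraries, and the voltage sensor genes, Stac3 and Jph2 lie below it in both. The open Cacnb1 point in replicate 1 is from an internal start site.

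The voltage sensor begins with Cacna1s, the pore-forming subunit that senses voltage (ENSMUSG00000026407.17, chromosome 1, 136052750 to 136119822, plus strand, mm10). Its promoter peak had a value of 2.05 in replicate 1, at 136052641 to 136052840, and 1.32 in replicate 2, at 136052401 to 136052900. These stood at the 57.5th and 49.9th percentiles, near the middle of each list. Among gene promoters open in both libraries, 14.1% and 8.61% were lower. Bases ahead of the start are shown because they hold 2 motifs of muscle genes in a row, in capitals: an MCAT element (GGAATG, bound by TEAD factors) and an E-box (CAGCTG, bound by MyoD family factors). The stretch is chr1:136052561-136052749 on the plus strand, from RefSeq (GRCm38.p6), cut before the first annotated transcript:
Cacna1s promoter: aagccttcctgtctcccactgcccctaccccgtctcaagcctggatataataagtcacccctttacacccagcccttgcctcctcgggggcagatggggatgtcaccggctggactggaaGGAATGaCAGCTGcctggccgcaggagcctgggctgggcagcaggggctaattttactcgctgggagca
Neither match lay in a footprint of either library. A footprint is a short stretch, called by the authors, that is protected from cleavage, and not all footprints lay in a peak of the shorter lists. A GC box (GGGCGG) of the same promoter region, at 136052765 to 136052770 past the stretch shown, lay in footprints of both libraries. Of all replicated promoter regions, 13.0% held this E-box and 7.03% this MCAT element in the 200 bp around their centre.

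Intron 2 of Cacna1s held 4 replicated distal regions, between 8.4 and 15 kb from the gene's start. Replicated means a region formed from overlapping peaks of both libraries, and distal means over 1 kb from every annotated start. The highest-ranked was at 136066747 to 136066907 with values of 1.62 and 1.26. That at 136061541 to 136061740 had 1.50 and 1.54, and that at 136067678 to 136067760 had 1.50 and 1.08. These 3 lay within a narrow range, at the 39.5th to 56.8th percentiles. A stronger region in replicate 1, at 136051507 to 136051740 just ahead of the promoter, had 2.74 there and 0.828 in replicate 2, the 69.3rd and 27.2nd percentiles. It lies 703 bp from the nearest annotated start, which belongs to the neighbouring gene Ascl5.

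Cacnb1 encodes the beta subunit, which brings the channel to the membrane (chromosome 11, 98001508 to 98023034, minus strand). In the shorter lists its promoter had no peak in replicate 1. In replicate 2 a wide peak at 98022567 to 98023201 had 1.50, the 55.9th percentile, and a narrow one at 98018301 to 98018400, by a start site in intron 2, had 1.20. In the longer lists replicate 1 had 1.50 at the outer start and 1.63 at the inner one. So both start sites had a peak in both animals only when the longer list was used for replicate 1. The lowest promoter q-value of replicate 1 was 0.00136, and that of replicate 2 was 1.8e-07. The outer promoter is shown because it is the GC-rich one of the pair, with capitals for the 7 bases that footprints of both libraries covered. It is chr11:98022635-98022877 on the minus strand, from RefSeq (GRCm38.p6):
Cacnb1 outer promoter: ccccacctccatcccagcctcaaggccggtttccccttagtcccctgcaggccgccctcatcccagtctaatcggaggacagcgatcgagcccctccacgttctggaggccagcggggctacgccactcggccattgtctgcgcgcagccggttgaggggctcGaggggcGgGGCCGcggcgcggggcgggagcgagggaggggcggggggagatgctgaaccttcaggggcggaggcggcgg
It holds 5 matches to the GC box (GGGCGG, bound by Sp and Klf factors). The inner promoter, chr11:98018373-98018622 on the same strand, holds none of them:
Cacnb1 inner promoter: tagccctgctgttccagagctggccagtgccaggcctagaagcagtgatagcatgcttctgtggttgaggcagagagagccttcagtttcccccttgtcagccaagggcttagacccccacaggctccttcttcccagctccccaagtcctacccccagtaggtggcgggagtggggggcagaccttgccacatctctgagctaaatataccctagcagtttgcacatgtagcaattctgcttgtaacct
In the longer lists Cacnb1 had 4 replicated distal regions, but in the shorter lists it was the member with none. Each library had 2 or more distal peaks of its own there, the highest being 2.54 in replicate 2 over exon 14 (98002741 to 98002900) and 2.26 in replicate 1 in intron 11 (98005886 to 98005970). In intron 2 a replicate 2 peak (98016881 to 98016910, 0.979) and a replicate 1 peak (98016921 to 98017148, 1.96) lay side by side. They did not overlap, so neither counts as replicated. The 4 regions of its window that were replicated in the shorter lists belonged to neighbours. The promoter of Rpl19, a ribosomal protein gene, had 7.47 and 5.11, and the others lay at Rpl19 (2.45 and 2.86) and Arl5c (2.56 and 2.77, and 1.39 and 1.52).

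Cacng1, the gamma subunit (chromosome 11, 107703218 to 107716522, minus strand), had promoter values of 2.12 and 1.23, the 59.1st and 46.3rd percentiles. An E-box lay at 107716563 to 107716568, inside the peak of replicate 1 and outside every footprint. Its 1 replicated distal region, in intron 1, 1.9 kb from the start, had 1.50 and 0.986. The region lies at 107714481 to 107714700, and its 4 footprints were all of replicate 2.

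Stac3, the adaptor that couples the voltage sensor to calcium release (chromosome 10, 127501686 to 127508823, plus strand), had the weakest promoter of those with a peak. Replicate 1 had 1.36 at 127501677 to 127501757, the 35.6th percentile. Replicate 2 had a peak in the longer list only, 1.14 at 127501670 to 127501859, with a lowest q-value of 0.00418. The more open sites lay near the end of the gene and past it. From 6.8 to 11.3 kb past the start lay 4 replicated distal regions, and per 100 kb of window this gave 14.7, a density that 99.9% of protein-coding genes were below. The strongest, at 127512901 to 127513120, had 5.98 and 7.61, the 87.5th and 97.2nd percentiles. The next, at 127509021 to 127509240, had 2.39 and 2.77, and the third, at 127509657 to 127509810, had 1.62 and 1.30. The strongest lies between Stac3 and Ndufa4l2, 1847 bp from the nearest start of the latter, so its link to Stac3 is by position only. Both stronger regions ranked higher in replicate 2 than in replicate 1, unlike the promoters of Cacna1s and Cacng1. They are shown, plus strand, with the bases that footprints of both libraries covered in capitals, because in each a CTCF motif lies wholly within those bases. CTCF is the factor that marks chromatin loop anchors. The regions are chr10:127512901-127513120 and chr10:127509021-127509240:
Stac3 strongest region: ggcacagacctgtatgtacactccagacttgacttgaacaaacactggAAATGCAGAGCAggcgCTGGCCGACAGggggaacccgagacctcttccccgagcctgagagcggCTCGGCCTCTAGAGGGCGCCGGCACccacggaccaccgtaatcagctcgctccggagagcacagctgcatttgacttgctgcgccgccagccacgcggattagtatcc
Stac3 second region: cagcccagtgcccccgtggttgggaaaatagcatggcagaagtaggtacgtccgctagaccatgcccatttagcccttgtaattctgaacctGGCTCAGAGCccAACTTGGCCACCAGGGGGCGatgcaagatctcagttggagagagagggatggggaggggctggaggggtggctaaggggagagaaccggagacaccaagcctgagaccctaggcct
CTCF motifs were searched by name with a fixed consensus. No other replicated distal region of the 9 genes held a match to it, so the count was 2 of 22. Of all replicated distal regions, 8.7% held one. Other forms of the motif were not searched, so these counts hold for that consensus only. The replicated region in intron 3 of Jph2, at 163340346 to 163340529, holds a near match that it left out. Most of that near match lies in bases that footprints of both libraries covered. Stac3 also had the highest share of footprints found in both libraries. Of its 17 replicate 1 footprints, 13 (76.5%) overlapped one of replicate 2, against 52.2% of all footprints of that library. That rank held for an overlap of 1 bp only. With a reciprocal overlap of 50%, 7 of the 17 were shared at Stac3 and 8 of 17 at Jph1, against 34.0% of all.

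Bin1 encodes amphiphysin 2, the membrane-bending protein of the transverse tubule (chromosome 18, 32377230 to 32435737, plus strand). Its promoter peak had 9.38 in replicate 1 at 32377101 to 32377340 and 3.92 in replicate 2 at 32377101 to 32377380, the 94.1st and 85.8th percentiles. Of the gene promoters open in both libraries 74.9% were lower in replicate 1 and 49.5% in replicate 2, so Bin1 stood high in the first animal and at the middle in the second. It had 6 replicated distal regions, the most of the 9 genes, and 99.1% of protein-coding genes had fewer. The highest-ranked was in intron 1, at 32380401 to 32380640, with 3.85 and 2.28. Next came one in intron 7, at 32418728 to 32418880, with 3.53 and 1.88, and another in intron 1, at 32391281 to 32391680, with 2.05 and 1.23. In intron 1 at 32380401, 4 of 5 replicate 1 footprints were shared, and in intron 7 3 of 3 were.

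Bin1 was also where the animals differed most in number of peaks. Replicate 2 had 24 regions there that replicate 1 lacked, and 33 of the 21851 genes (0.151%) had as many or more. Replicate 1 had 8 that replicate 2 lacked, and 81 genes had as many or more of these. Of the 24, 19 lay in intron 1, and all 24 were below the median value of their list, from 0.105 to 1.31 with a median of 0.296. Of the 24, 17 held no replicate 2 footprint, while all 7 replicated regions of Bin1 held at least 1. Only 3 of the 24 overlapped a peak of the longer list of replicate 1. Bases with a deposited q-value covered 20993 bp of the Bin1 window in replicate 2 and 6052 bp in replicate 1. Weak peaks of this kind were common in replicate 2 as a whole. A value below 0.5 was found for 19 of these 24, for 43.0% of all regions that only replicate 2 had, and for 0.795% of those that only replicate 1 had. That cut is the same raw value in both libraries, whose lists had medians of 1.76 (replicate 1) and 1.33 (replicate 2). It need not mark the same rank in each. The part of scaling and depth in the difference between the animals was not tested.

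**Figure D2:**
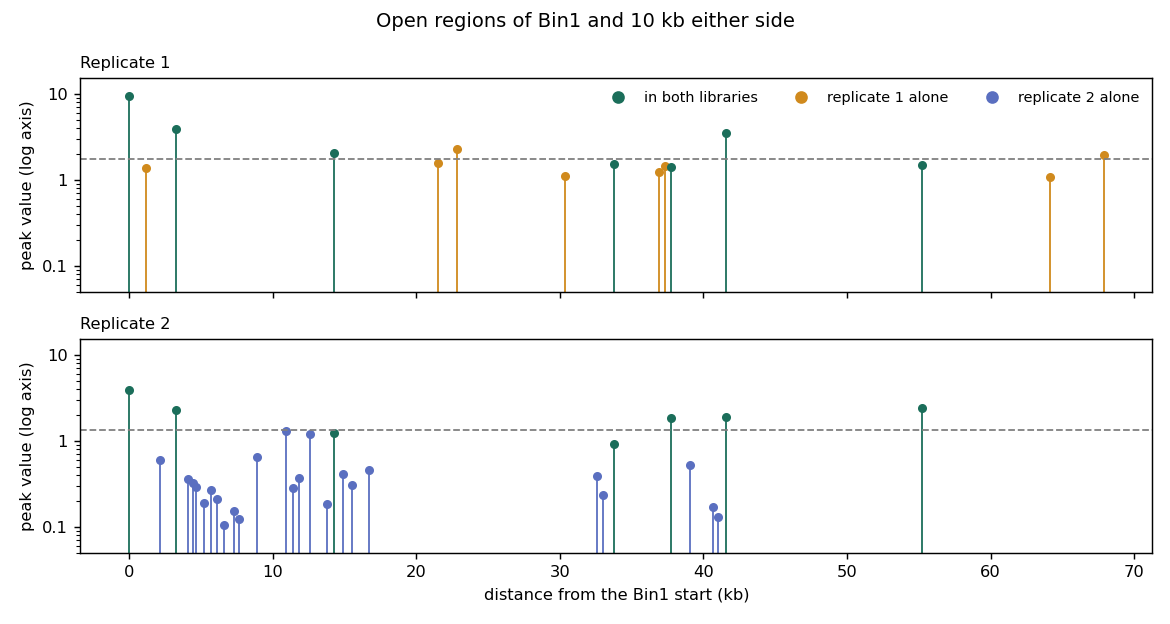
Peak value (authors' signal height, log axis) of each open region of Bin1 and 10 kb either side in each library, by distance from the gene's start in kb, with a dashed line at the median value of the list. In replicate 2, 5 of the 7 regions of both libraries lie above the line, and the 19 regions of intron 1 that replicate 1 lacks all lie below it.

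The junctophilins bridge the tubule and the reticulum. Jph1, the main junctophilin of skeletal muscle (chromosome 1, 16964560 to 17097889, minus strand), had promoter values of 5.86 and 2.75, the 87.1st and 77.2nd percentiles. Each library had 6 footprints in that region, of which 3 of replicate 1 were shared. The region, by 5.86 the third of the 9 in height, held GC boxes within footprints of both libraries at 17097820 to 17097825 and 17097908 to 17097913. A further replicated region in intron 1, 778 bp from the start at 17096761 to 17097111, had 3.49 and 1.78. There each of 5 replicate 1 footprints overlapped one of replicate 2. The rest of this gene of 133330 bp held 1 replicated distal region, in exon 5 at 16996741 to 16996920, with 2.48 and 0.953, which the overlapping gene model Gm28376 also spans.

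Jph2, the junctophilin that heart muscle uses as well (chromosome 2, 163336242 to 163397993, minus strand), had promoter values of 2.97 and 1.67, the 72.1st and 60.4th percentiles. Both were lower than those of Jph1 in the same library, as unscaled peak heights. Its promoter is shown because footprints of both libraries, in capitals, cover a GC box, and an E-box follows close behind. It is chr2:163397994-163398243, minus strand, from RefSeq (GRCm38.p6):
Jph2 promoter: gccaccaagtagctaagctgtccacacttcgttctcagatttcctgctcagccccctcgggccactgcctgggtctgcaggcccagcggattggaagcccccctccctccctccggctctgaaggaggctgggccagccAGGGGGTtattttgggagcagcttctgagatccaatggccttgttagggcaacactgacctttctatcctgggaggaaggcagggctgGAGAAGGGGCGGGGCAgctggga
The E-box, whose first bases are in capitals, lay wholly in a footprint of replicate 2 alone. Counted in the 200 bp around the centre, GC boxes were at 6 of the 11 replicated regions at start sites in these windows, neighbours included. The share for all such regions was 57.8%. Jph2 had 3 replicated distal regions. That in intron 1, 11 kb from the start at 163386921 to 163387143, had 2.71 and 1.31, that in intron 3 at 163340346 to 163340529 had 1.49 and 1.73, and that in intron 2 at 163353871 to 163354000 had 1.29 and 1.08. The first of these is shown, minus strand, chr2:163386921-163387143, with motif matches in capitals: in order an AP-1 site (TGANTCA), an E-box and an MCAT element:
Jph2 intron 1: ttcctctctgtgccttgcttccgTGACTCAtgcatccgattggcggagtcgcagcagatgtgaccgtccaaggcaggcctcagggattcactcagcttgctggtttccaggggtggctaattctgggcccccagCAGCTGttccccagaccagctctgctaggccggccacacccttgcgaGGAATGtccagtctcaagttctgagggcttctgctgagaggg
None of the 3 matches lay in a footprint. Replicate 2 had 7 further regions in the Jph2 window that replicate 1 lacked, 6 of them below the median value of the list, and replicate 1 had none of its own.

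Trdn encodes triadin, which ties the calcium release channel to calsequestrin (chromosome 10, 33080554 to 33476709, plus strand). At 396156 bp it was the longest of the 9 genes, and with 2 open regions it had the fewest. None of its 4 annotated start sites had a peak within 500 bp in either list of either library, and no run of bases with a q-value below 0.05 lay within 500 bp of them. The nearest such run was 5.7 kb from a start site in replicate 1 and 8.8 kb in replicate 2. No promoter peak here means none at the authors' thresholds. The 1 replicated region lay in intron 5, 99.3 kb into the gene at 33179701 to 33179924, with 1.44 and 0.664, the 39.1st and 19.5th percentiles. Replicate 2 had a second peak beside it at 33180061 to 33180260 with 0.743, and replicate 1 had one there in its longer list with 0.653. So the only sites of Trdn open in both animals formed a pair far inside the gene. The replicated region is shown, plus strand, chr10:33179701-33179924, with a match to AAGGTCA, the site of ERR nuclear receptors, in capitals:
Trdn intron 5: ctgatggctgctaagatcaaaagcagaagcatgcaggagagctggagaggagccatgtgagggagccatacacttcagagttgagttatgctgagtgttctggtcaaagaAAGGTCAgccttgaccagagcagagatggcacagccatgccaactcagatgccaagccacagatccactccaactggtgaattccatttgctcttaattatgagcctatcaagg
That motif was in 1 of 22 replicated distal regions of the 9 genes and in 3.83% of all of them. Each library had 2 footprints in the region, and none was shared.

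Asph had the strongest promoter of the 9 genes and an inner promoter as well (chromosome 4, 9448069 to 9669344, minus strand). Its locus encodes aspartyl beta-hydroxylase, an enzyme of the endoplasmic reticulum, and, from other transcripts, junctin and junctate, calcium-binding proteins of the reticulum membrane; junctin binds triadin. The outer promoter had 11.1 at 9669081 to 9669420 in replicate 1 and 5.60 at 9669021 to 9669260 in replicate 2, the 96.1st and 92.7th percentiles. All 7 footprints of replicate 1 there overlapped one of replicate 2. Of gene promoters open in both libraries, 83.1% and 71.6% were lower. The inner promoter, 25.6 kb further into the gene in intron 1 at 9643636 to 9643855, had 2.26 and 1.24, the 61.9th and 46.6th percentiles. None of its 3 and 2 footprints was shared. GENCODE starts 4 protein-coding transcripts there, with products of 207 to 272 amino acids. The 7 that start at 9669162 have products of 197 to 741 amino acids, so short products are annotated from both promoters. A motif of MEF2 factors, which drive muscle genes, lay at 9643719 to 9643728, directly ahead of the inner start at 9643717 and outside every footprint. MEF2 matches were in 1 of the 37 replicated regions near these genes, this one, and in 1.18% of all replicated regions. The inner promoter ranked close to those of Cacna1s and Cacng1 in both animals. In the longer peak lists these values were the same.

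Beyond the Asph promoters, a replicated region past the end of the gene, at 9444541 to 9444740 inside Clvs1, had 4.68 and 1.20, the 83.2nd and 45.2nd percentiles. The other, in intron 16 at 9530381 to 9530560, had 1.17 and 0.881. The first is shown, on the strand of Asph, chr4:9444541-9444740, with the bases that footprints of both libraries covered in capitals, because they hold a full cyclic AMP response element, TGACGTCA:
Region past Asph: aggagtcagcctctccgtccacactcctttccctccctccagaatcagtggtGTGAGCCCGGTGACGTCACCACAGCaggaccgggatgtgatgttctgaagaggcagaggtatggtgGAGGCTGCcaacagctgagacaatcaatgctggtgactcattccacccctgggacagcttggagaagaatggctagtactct
That motif was searched after the sequence had been seen. It was in none of the other 21 replicated distal regions and in 0.605% of all replicated distal regions.

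**Figure D3:**
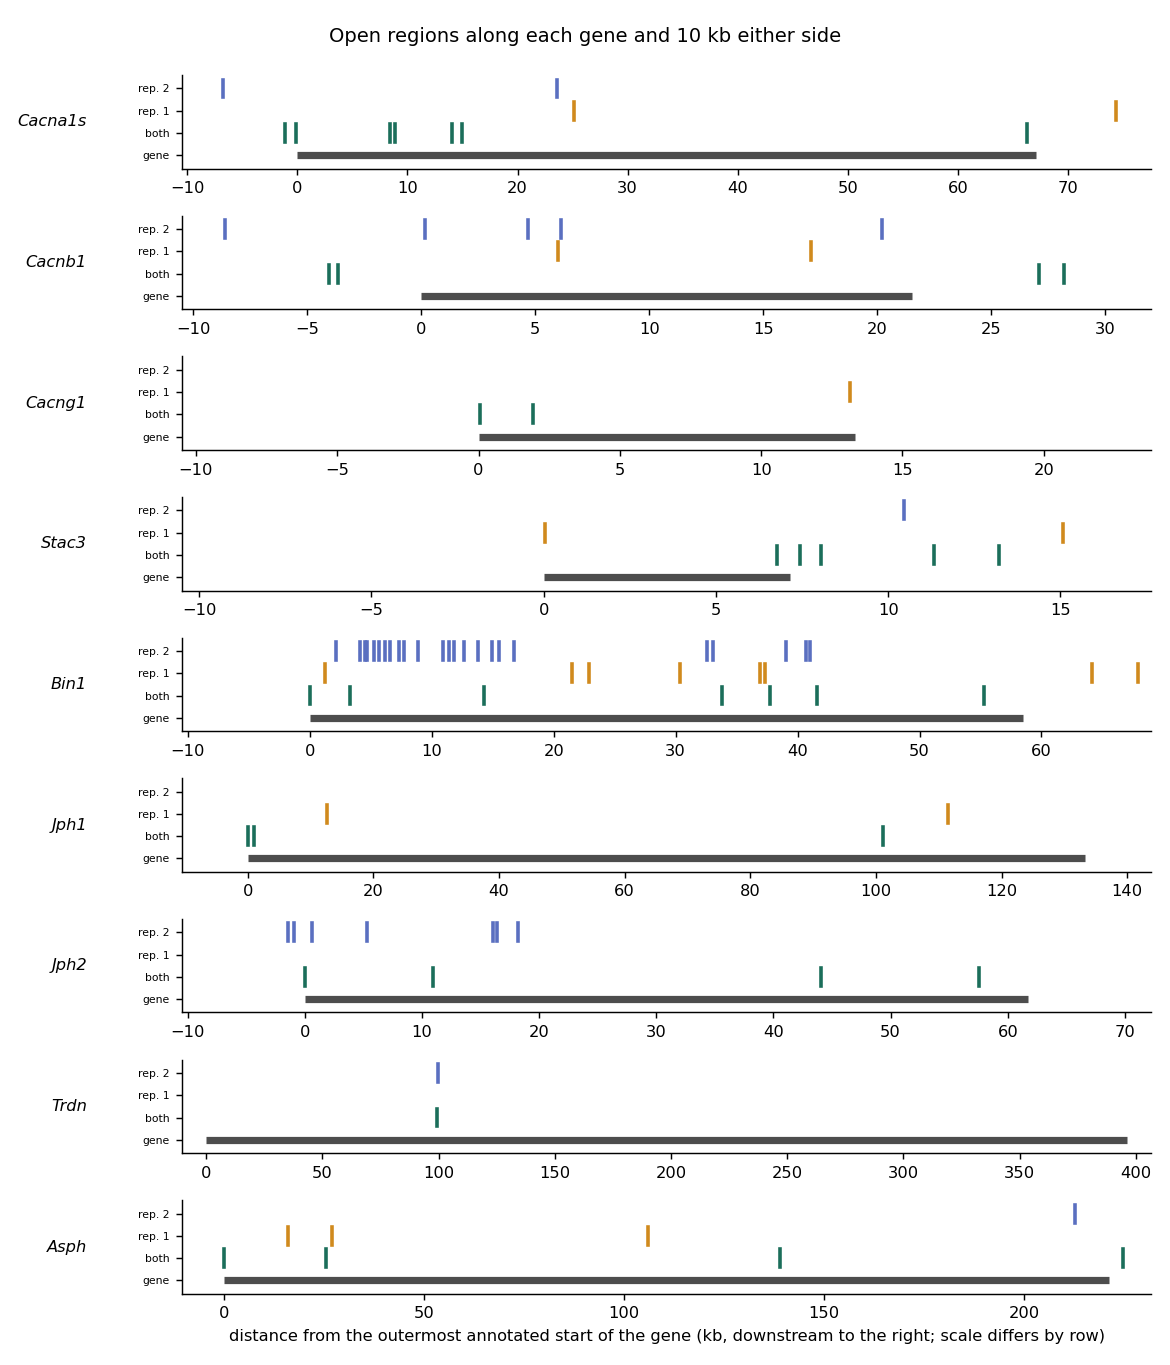
Open regions along each gene (grey bar) and 10 kb either side, by distance from its outermost annotated start in kb, with a tick for each region found in both libraries, in replicate 1 alone or in replicate 2 alone. Regions of both libraries number from 1 in Trdn to 7 in Cacna1s and in Bin1, and the scale differs between rows.

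Together the 9 windows held 98 open regions, of which 37 (37.8%) were found in both animals, against 51.2% of all regions. Replicate 2 alone gave 41 and replicate 1 alone 20, and without Bin1 the replicated share was 50.8%. Of the 37, 7 lay at the genes' own start sites, 4 at those of neighbours and 22 were distal. At least 1 replicated distal region was found in 8 of the 9 genes, against 32.2% of protein-coding genes. Cacnb1, the exception, had 4 in the longer lists only. The number per window had a median of 2 in the 9 genes and 0 in all genes, and per 100 kb of window 3.0 and 0. Larger windows hold more regions, and the densities ranged from 0 at Cacnb1 and 0.240 at Trdn to 7.64 at Bin1 and 14.7 at Stac3. Most of these distal regions were not strong. Counting peaks that reached the median of their own list, 4 such regions were left.

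Footprints numbered 172 in replicate 1 and 266 in replicate 2 in these windows, and 119 and 179 of them lay in peaks of the shorter lists. Of all 172 of replicate 1, in peaks or not, 83 (48.3%) overlapped one of replicate 2, close to the 52.2% of all footprints of that library. Shares ran from 0 of 2 at Cacng1 and 0 of 3 at Trdn through 37.5% at Asph, 39.2% at Bin1 and 42.1% at Cacna1s to 52.9% at Jph1, 59.1% at Cacnb1, 64.7% at Jph2 and 76.5% at Stac3. With a reciprocal overlap of 50% this order changed, and Jph1 (8 of 17) stood above Stac3 (7 of 17). The genes with 2 or 3 footprints are too few to rank.

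**Figure D4:**
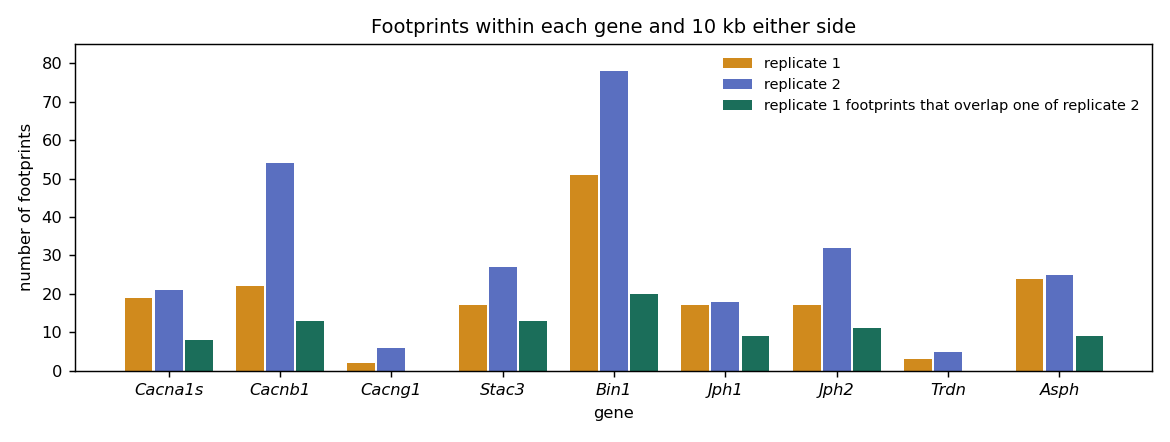
Number of footprints within each gene and 10 kb either side in replicate 1, in replicate 2, and of replicate 1 footprints that overlap one of replicate 2 by at least 1 bp. Bin1 has the most in both libraries (51 and 78), and Cacng1 and Trdn have the fewest and share none.

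Motifs of muscle genes were counted in the 200 bp around the centre of each of the 22 replicated distal regions. For regions narrower than 200 bp this stretch takes in bases beside the region, so some matches counted lie outside the open region. The E-box was in 8 of these stretches (36.4%), against 26.2% for all replicated distal regions, and the MCAT element in 5 (22.7%), against 12.2%. At these counts 1 region is 4.55 percentage points, so the gaps amount to a few regions. KLF sites (CCCACCC) were in 4, against 9.37% of all, RUNX sites (TGTGGT) in 4, against 14.3%, and AP-1 sites in 3, against 10.3%. MEF2 matches were in none of the 22, against 1.62%. The CArG box of Srf was in 1, in Bin1, against 0.939%. ETS sites (CCGGAAG) were in 1 (2.11% of all) and the GC box in 4 (13.1%). The full NFI site (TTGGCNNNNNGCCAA, 0.0883%), the NRF1 site (0.466%) and the glucocorticoid response element (0.92%) were in none.

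Of 20 other genes of the same machinery, 16 had a promoter peak in both animals, against 54.2% of all protein-coding genes. They included Ryr1, the calcium release channel (3.25 and 1.72), Atp2a1, the fast calcium pump (3.66 and 1.62), Cacna2d1, the alpha2delta subunit of the voltage sensor (1.68 and 2.06), and Cacng6, a further gamma subunit (1.28 and 1.17). Casq1 and Jsrp1, genes of the junctional reticulum, had a peak in replicate 1 alone (2.15 and 2.23) and Srl (sarcalumenin) in replicate 2 alone (1.14). Scn4a, the sodium channel, had none in either list. With the longer lists 19 of 20 had a peak in both, against 59% of all protein-coding genes. The highest promoters were those of genes with roles outside muscle too, Fkbp1a (12.9 and 7.17), Dnm2 (12.6 and 8.23) and Orai1 (11.8 and 9.91).

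Of 11 paralogs of the 9 genes, used mainly in other tissues, 4 had a promoter peak in both animals, against 54.2% of all genes. With the longer lists 8 of 11 had one, against 59% of all genes. Jph3 and Jph4, the junctophilins of the brain, had none in the shorter lists, and neither had Stac, Cacna1d, Cacna1f and Cacnb4. In the longer lists Jph4 had 0.974 and 1.13, Stac 0.505 and 0.526, and Cacnb4 0.616 and 0.572. Cacna1c, the voltage sensor of heart and smooth muscle, had 1.41 and 0.637, below both Cacna1s values. Cacnb3, a beta subunit of other tissues, had 2.56 and 1.80, above the Cacnb1 values of the longer lists. Cacnb2 had 0.986 and 0.874 and Amph, the neuronal relative of Bin1, 1.33 and 0.631. Stac2 had 1.79 in replicate 1 and, in the longer list only, 1.02 in replicate 2.

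Genes whose promoters stood at nearly the same pair of percentiles were of mixed kinds. This likeness rests on 1 value in each of 2 libraries. Nearest to Cacna1s were Gm3411, Blnk and Trim63, to Cacng1 Procr, Igfbp6 and Edar, to Jph2 Chpf2, Gemin6 and Cfap45, to Jph1 Slc39a14, Uhmk1 and Iffo1, to Bin1 Eml6, Ebag9 and Smad3, and to Asph BC004004, Isca2 and Npc2. The summed difference in percentile points was from 0.105 (Asph and BC004004) to 1.35 (Cacng1 and Edar).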

How the data were processed

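The members and gene lists were chosen with earlier results of these data known. DNase-seq of 2 gastrocnemius libraries, replicates 1 and 2 of 1 group, was used as deposited on mm10, per the labels. For the aligner, the callers, their versions and the treatment of reads from CAST alleles, the details were not given in the sources used here. Each library has deposited peak lists of its own. The peak value is a signal height by the authors, with unstated scaling. The authors' q-values cover runs of bases below 0.05. The deposited footprint score is 0.01 on every line, so footprints were used by position.

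Genes and 41438 start sites of protein-coding transcripts (basic set) came from GENCODE M21 on GRCm38, without the mitochondrion, and distances to any start used 132629 sites. A promoter peak lay within 500 bp of a start site, and a gene's value is that of its highest such peak. Overlap was at least 1 bp. Regions touching end to end stayed apart. Exon and intron numbers follow the principal transcript and the region's centre. Motifs were searched on both strands in the GRCm38.p6 genome (pysam 0.24.0), and overlapping motifs were each counted. Motif shares were counted in 200 bp around each region's centre, which reaches past the edges of narrower regions. A match is a description only. The matches of 1 motif searched are not reported here. No test was made, and the alternatives were the longer lists, a limit on peak value, other distances, transcript sets and overlaps, and each library alone. RefSeq promoters were given for 3 of the 9 genes (Cacna1s, Cacnb1 and Jph2). Bases of annotated UTRs were left out of printed sequences. All 9 genes are described, with promoter peaks and up to 3 replicated distal regions each, ranked by the lower of both percentiles. Printed sequences follow that rank, save that a further region is shown where a result turns on it. Overlap counting and motif search recovered planted answers on simulated data.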

Additional observations from a re-analysis of the deposited data

How the results depend on the processing

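The number of genes with a promoter peak in both libraries, 6, was 8 with the longer lists (59% of all genes), 4 with peaks that reached the median of their own list (Asph, Bin1, Jph1 and Jph2, against 47.5% of all genes), 6 with start sites reaching to 1000 bp (55.5%), 6 with all annotated transcripts (55.7%), and 7 in either library alone. Counts of regions depended more on the list. The 37 replicated regions became 64 with the longer lists and 12 with that limit, and a single library held 57 to 78. The 22 replicated distal regions became 44 and 4 under those settings, and a single library held 39 to 58. A reciprocal overlap of 50% or the gene body alone kept both counts within 1.5 times. The 83 of 172 footprints of replicate 1 that overlapped one of replicate 2 became 48 of 172 with a reciprocal overlap of 50%. Of all footprints of that library 34.0% met that overlap. Among footprints in peaks of the shorter lists the count was 54 of 119, so the base was smaller too. Bases with a q-value in these windows fell from 23292 to 11631 in replicate 1 at a limit of 0.001. No paired analysis was possible because there is 1 group. Depth is unknown, so whether a missing peak is closed chromatin or missed at this depth was not tested.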
